A study of Mus musculus with 14 samples.

Results

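The Sox, Tbx, Pax and Gata genes encode 4 families of transcription factors that direct cell fate in the embryo, and H3K4me1 sites at these genes were mapped in mouse fibroblasts. Members were the protein-coding genes of GENCODE release M21 whose symbol is Sox, Tbx, Pax or Gata followed by a number, with or without a letter. The rule found 47 of the 21938 protein-coding genes on chromosomes, namely 19 Sox, 13 Tbx, 9 Pax and 6 Gata genes. It used symbols alone and no measured value. It leaves out relatives with other names, such as T, Eomes, Tbr1, Mga and Sry.

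The cells were NG3, 1 clone of immortalized mouse embryo fibroblasts (iMEF) whose Ash2l alleles were floxed and then deleted through the Cre-ER they carry. Endogenous Ash2l is lost in it, and a lentiviral construct provides human ASH2L fused at its N terminus to FKBP12 F36V, a tag that the PROTAC dTAG binds and sends to degradation. ChIP-seq of H3K4me1 was done without dTAG and after 30 min, 2 h, 4 h, 8 h and 16 h of dTAG, with 2 libraries for each, which makes 12 libraries, and 2 inputs (no dTAG and 16 h) were sequenced beside them. All groups carry the same Ash2l deletion and the same fusion protein, and no other clone was measured here.

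The deposited H3K4me1 table lists 160144 sites, called over all samples together, with the start and end of each and without any read count or signal. A site may therefore stem from the control, from any time of dTAG treatment, or from all of them, and these cannot be told apart here. There are no values per library, so no replicate error, depth or change over time can be given. All values below are positions and lengths of sites, and differences between genes are described without a test.

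ASH2L is a core subunit of the COMPASS/KMT2 complexes that methylate lysine 4 of histone H3. Monomethylation, H3K4me1, is known as a mark of enhancers and of the shoulders of active promoters, whereas H3K4me3 marks the centre of active promoters. SOX factors bind DNA through an HMG box, T-box factors through the T domain, PAX factors through the paired domain and GATA factors through zinc fingers. Each family is used in several germ layers, and the genes are active in some lineages and silent in most others. The comparison asks which of them carried the mark in these fibroblasts, and where.

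For each family, the promoter with the most bases in a site and a promoter with none are shown, since they span the range of the data. A promoter was the window of 1 kb on either side of the most upstream transcription start site (TSS), 2001 bp in all. The sequences run from 250 bases before the TSS to 30 bases after its first base, are taken from GRCm38.p6 in the direction of transcription, and have each CpG in capitals. Sox11, a factor of neural and mesenchymal progenitors, had 2001 bp in a site, and Sox1, a factor of neural progenitors, had 0 bp.
Sox11 (chr12:27342545-27342824, minus strand): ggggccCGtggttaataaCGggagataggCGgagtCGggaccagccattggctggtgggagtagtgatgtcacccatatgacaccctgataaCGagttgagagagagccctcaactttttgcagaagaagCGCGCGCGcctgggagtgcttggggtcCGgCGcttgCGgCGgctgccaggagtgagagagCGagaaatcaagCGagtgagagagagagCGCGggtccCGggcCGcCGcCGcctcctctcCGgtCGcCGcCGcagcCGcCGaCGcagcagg
Sox1 (chr8:12395045-12395324, plus strand): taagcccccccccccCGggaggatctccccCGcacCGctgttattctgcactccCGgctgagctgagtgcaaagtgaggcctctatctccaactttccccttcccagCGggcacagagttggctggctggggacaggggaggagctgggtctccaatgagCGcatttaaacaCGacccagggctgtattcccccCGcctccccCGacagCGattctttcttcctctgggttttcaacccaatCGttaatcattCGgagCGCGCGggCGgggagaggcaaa
Tbx15, a gene of the dorsal dermis and the limb skeleton, had 2001 bp in a site, and Tbx22, a gene of the palate on the X chromosome, had 0 bp.
Tbx15 (chr3:99240131-99240410, plus strand): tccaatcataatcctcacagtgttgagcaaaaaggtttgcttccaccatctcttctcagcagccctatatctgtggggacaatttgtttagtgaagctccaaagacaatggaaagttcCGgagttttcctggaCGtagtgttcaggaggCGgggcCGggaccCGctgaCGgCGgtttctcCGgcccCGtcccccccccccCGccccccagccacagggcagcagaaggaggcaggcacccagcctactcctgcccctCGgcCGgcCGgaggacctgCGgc
Tbx22 (chrX:107667714-107667993, plus strand): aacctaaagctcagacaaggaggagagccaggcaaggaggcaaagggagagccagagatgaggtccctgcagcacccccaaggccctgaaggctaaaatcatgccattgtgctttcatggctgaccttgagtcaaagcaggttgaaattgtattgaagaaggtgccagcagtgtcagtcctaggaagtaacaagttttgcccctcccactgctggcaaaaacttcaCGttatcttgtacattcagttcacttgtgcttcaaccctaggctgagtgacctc
Pax2, a gene of kidney and optic stalk, had 1909 bp in a site, and Pax1, a gene of the sclerotome and thymus, had 0 bp.
Pax2 (chr19:44755795-44756074, plus strand): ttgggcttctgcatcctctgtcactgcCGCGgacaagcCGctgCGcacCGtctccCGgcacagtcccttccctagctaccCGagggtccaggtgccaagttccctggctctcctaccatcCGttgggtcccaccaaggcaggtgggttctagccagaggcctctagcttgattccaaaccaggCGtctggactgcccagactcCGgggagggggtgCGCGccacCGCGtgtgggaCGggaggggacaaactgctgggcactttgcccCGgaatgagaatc
Pax1 (chr2:147361675-147361954, plus strand): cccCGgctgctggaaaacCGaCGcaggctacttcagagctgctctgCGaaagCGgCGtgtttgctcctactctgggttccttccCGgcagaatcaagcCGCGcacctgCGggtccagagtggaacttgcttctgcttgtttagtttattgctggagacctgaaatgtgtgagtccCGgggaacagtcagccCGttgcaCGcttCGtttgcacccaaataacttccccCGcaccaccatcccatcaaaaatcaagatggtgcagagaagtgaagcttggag
Gata4, a gene of heart, gonad and endoderm, had 2001 bp in a site, and Gata5, its close relative in heart and endoderm, had 0 bp.
Gata4 (chr14:63271663-63271942, minus strand): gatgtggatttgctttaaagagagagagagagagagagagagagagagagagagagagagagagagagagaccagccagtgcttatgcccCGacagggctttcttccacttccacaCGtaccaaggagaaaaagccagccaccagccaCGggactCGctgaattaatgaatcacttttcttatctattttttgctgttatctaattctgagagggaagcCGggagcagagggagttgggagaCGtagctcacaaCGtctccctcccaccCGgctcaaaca
Gata5 (chr2:180334670-180334949, minus strand): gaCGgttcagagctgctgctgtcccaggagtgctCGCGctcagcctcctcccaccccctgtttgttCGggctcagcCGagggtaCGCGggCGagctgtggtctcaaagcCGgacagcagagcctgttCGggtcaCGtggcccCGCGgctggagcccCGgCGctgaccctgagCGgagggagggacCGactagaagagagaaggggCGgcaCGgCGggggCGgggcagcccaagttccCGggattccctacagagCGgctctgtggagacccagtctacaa
The number of CpGs in these 280 bases did not follow the mark in a fixed direction. It was 28 for Sox11 against 16 for Sox1, 14 for Tbx15 against 1 for Tbx22 and 16 for Pax2 against 15 for Pax1, but 8 for Gata4 against 23 for Gata5.

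At promoters, the 4 families as a whole were close to other genes. At least 1 site overlapped the promoter of 30 of the 47 genes (63.8%), against 63.9% of all protein-coding genes. The TSS itself lay in a site in 22 genes (46.8%), against 39.5% of all. With sites within 1 kb merged, it was 23 of the 47, against 11544 of 21938, and the members' share was then the lower. In the other alternatives run on this count the members' share stayed the higher. The median length of promoter in a site was 848 bp over the members and 877 bp over all protein-coding genes. No promoter site was found at 17 members (36.2%, against 36.1% of all), and 3 had the whole window in 1 site. These 3 were Sox11, Tbx15 and Gata4, and 6.84% of all protein-coding genes had a window covered from end to end. Counting a site at any annotated TSS raised the number to 32 genes, against 67.8% of all, with Pax5 and Pax8 as the genes gained.

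**Figure D1:**
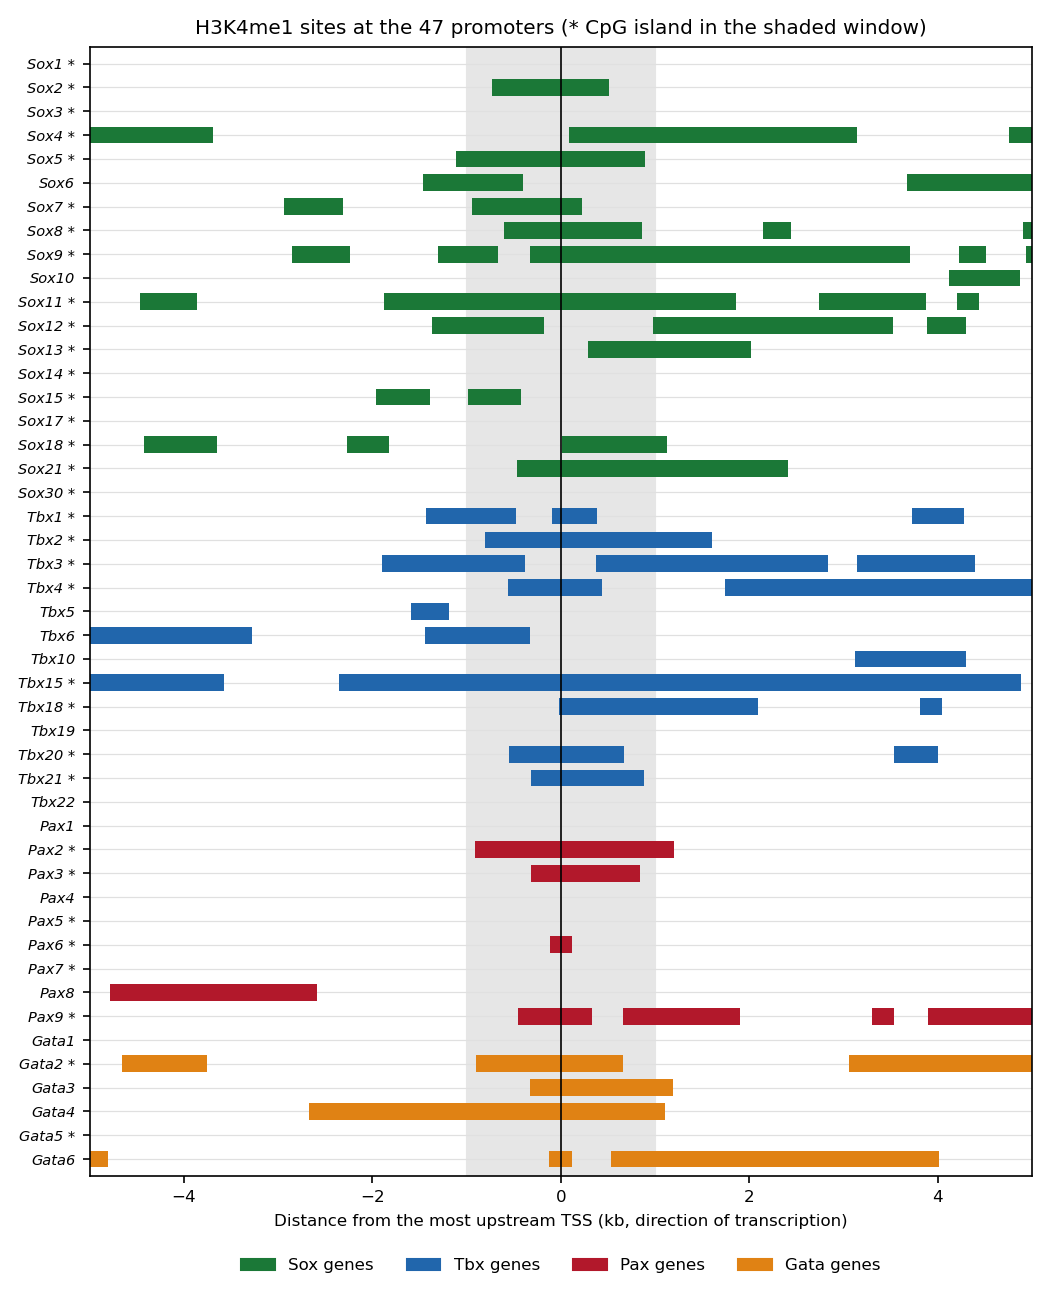
Bars are H3K4me1 sites within 5 kb of the most upstream TSS of each of the 47 genes, drawn in the direction of transcription and coloured by family; the grey band is the promoter window of 1 kb on either side, and an asterisk marks a CpG island in it. Sites lay over the TSS in 22 genes, beside it in 8, and the band is empty in 17, among them Sox1, Sox3, Sox17, Pax1 and Gata5.

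Where a promoter had a site, the site usually ran across the TSS. Only 2 genes had a site on each side with a free TSS between them, namely Sox12 and Tbx3 (4.26%, against 13.7% of all protein-coding genes). At Sox12, the sites ended 180 bp before and began 974 bp after the TSS. At Tbx3, which acts in limb and mammary gland, they ended 377 bp before and began 375 bp after it. Sox6, Sox15 and Tbx6 had a promoter site only upstream of the TSS (6.38%, against 1.96% of all protein-coding genes). Sox4, Sox13 and Sox18 had one only downstream (6.38%, against 8.69% of all). The last group includes near misses, since the site began 11 bp after the TSS of Sox18 and 81 bp after that of Sox4. The widest site of any member lay over the TSS of Tbx15, from 2356 bp upstream to 4879 bp downstream, and was 7236 bp long.

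Members and other genes were farther apart when promoters were split by CpG island. An island, called from sequence as a CpG-rich stretch over 200 bp, overlapped 33 of the 47 promoters (70.2%), against 53.8% of all protein-coding genes. Of these 33 island promoters, 25 (75.8%) overlapped a site, against 93% of all island promoters. Of the 14 members without an island, 5 (35.7%) overlapped a site, against 30% of all such promoters. The 8 island promoters with no site were those of Sox1, Sox3, Sox14, Sox17, Sox30, Pax5, Pax7 and Gata5. Within 300 bases at the TSS, these 8 held a median of 21.5 CpGs (8 to 28) and the 25 with a site a median of 19 (9 to 46). Among island promoters the median of the empty ones was thus not the lower. Among members without an island, the 5 with a site held a median of 10 CpGs and the 9 without a median of 7. Over all 47 members, the 30 with a site held a median of 17.5 CpGs and the 17 without a median of 12.

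Along island promoters, the share with a site was lower over the members on both sides of the TSS, and nearly equal just before it. Over all island promoters of protein-coding genes, the share with a site was 60.3% in the 100 bp from 400 bp upstream, dipped to 55.4% just before the TSS and reached 83.2% in the 100 bp from 300 bp downstream. Over the 33 island promoters of the members it was 44.9% in the 100 bp from 400 bp upstream and 54.8% just before the TSS. It was highest, at 61.0%, in the 100 bp from 100 bp downstream. With 33 genes, 1 gene stands for 3.03 percentage points of such a share, and the members' value of 58.8% in the 100 bp from 300 bp downstream was within that of their top.

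**Figure D2:**
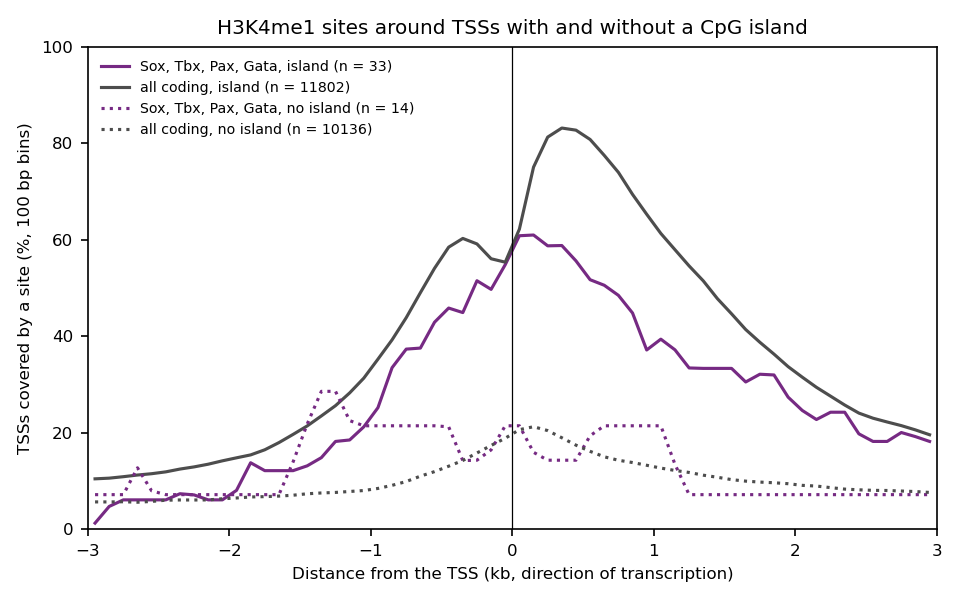
Share of TSSs, in %, that lie in an H3K4me1 site in each 100 bp bin from 3 kb before to 3 kb after the TSS, for the 33 members and 11802 protein-coding genes with a CpG island in the promoter (solid) and the 14 and 10136 without (dotted). The members' island curve has a single broad top of 61.0% near the TSS, whereas the curve of all genes has a shoulder of 60.3% before it and a top of 83.2% behind it.

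The locus was defined as the gene body and 50 kb of flank on each side. Over the locus, the members were again close to other genes, in the median as in the spread. The median share of the locus in sites was 8.46% over the members and 7.86% over all protein-coding genes, and 25 of the 47 lay above the latter. By percentile among all protein-coding genes, 10 members were in the highest 25% and 11 in the lowest 25%. Only 5 members had no site at all in the locus (10.6%, against 13.2% of all), namely Sox1, Sox3, Sox17, Tbx22 and Pax1. With sites of at least 500 bp alone, 8 of the 47 had none, against 16.3% of all, and the members' share was then no longer the lower. Body sites were found in 34 members (72.3%, against 72.8%).

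The 10 members with the largest share came from all families, and some had few sites of their own. Sox15, the only SoxG gene, was the first of them with 23.8% of its locus in 16 sites (chr11:69655314-69656727, percentile 91.7). Its body held no site, its promoter had 556 bp in a site, and 10 of the 11 TSSs of the neighbouring genes in the flanks had a promoter site. Tbx6, which specifies presomitic mesoderm, had 22.5% (chr7:126781483-126785560, percentile 90.2), no body site, 670 bp at the promoter, and 7 of 8 neighbouring TSSs with a site. When the flanks were ended 1 kb before the next protein-coding gene, Sox15 reached 30.8% of a remaining 8.92 kb. Tbx6 fell to 0% of a remaining 4.08 kb, which is its body alone and leaves out its promoter site. How far the neighbouring genes account for these shares was not tested.

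Tbx15 followed with 21.9% of the locus (chr3:99240381-99354259, percentile 89.3). Its 44 sites were the most of any member outside Sox5 and Sox6, 35 of them lay in the body, and no neighbouring TSS lay in its flanks. Its share was 24.2% with flanks ended before the next gene. Sox7, a SoxF factor of the vascular endothelium, had 21.5% in 29 sites (chr14:63943673-63950732), 17 of them upstream and 12 downstream, while its body was covered to only 3.20%. Tbx4, the factor of the hindlimb bud and lung mesenchyme, had 19.7% (chr11:85886422-85916097). Behind its promoter site of 998 bp, it had a pair of intronic sites of 4920 and 5333 bp, the second of which ended 12369 bp after the TSS. Sox12, a SoxC gene, had 19.5% (chr2:152393611-152398063) with 66.6% of its body in sites.

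Pax4, a factor of pancreatic endocrine precursors, had 19.4% (chr6:28442334-28449353). None of its 22 sites lay in the promoter or the body, the nearest was 9559 bp from the TSS, and 4 of 5 neighbouring TSSs had a site. With flanks ended before the next gene its share was 9.10%. Gata4 had 18.5% in 24 sites (chr14:63198922-63271692), of which 14 lay downstream. Pax8, a factor of thyroid and kidney, had 17.5% (chr2:24420560-24475599) with 15 body sites and none at the most upstream promoter. Sox8, a SoxE gene of glia and testis, had 15.2% (chr17:25565892-25570686), of which 10 of 13 sites lay downstream. Tbx2 joined the highest members when flanks were ended before the next gene, with 29.8% of 18.7 kb.

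**Figure D3:**
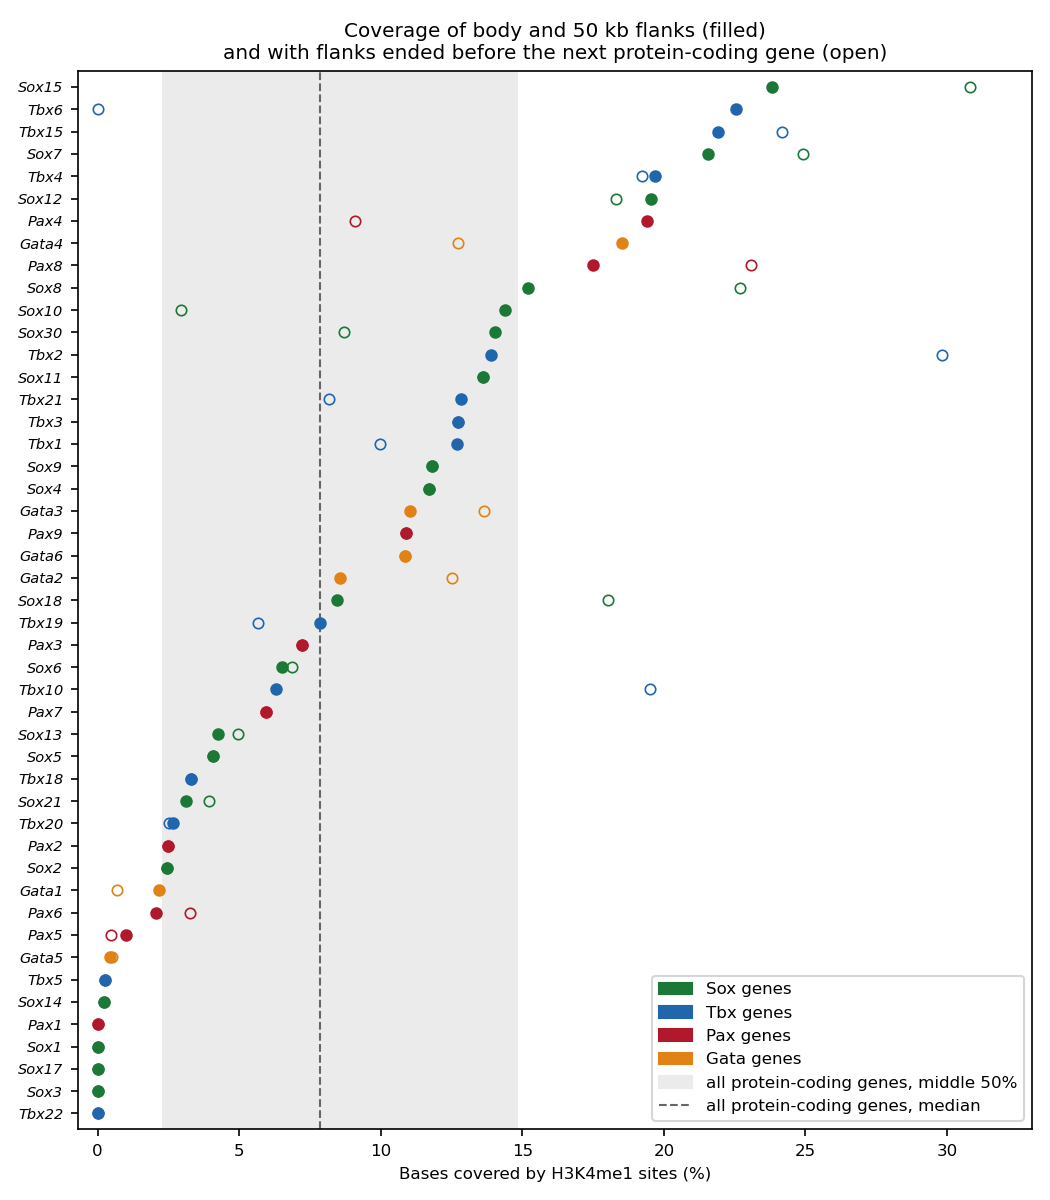
Share of bases, in %, in H3K4me1 sites over the gene body and 50 kb flanks (filled) and with the flanks ended 1 kb before the next protein-coding gene (open), for the 47 genes in order of the filled point; the dashed line and band give the median (7.86%) and the middle 50% (2.31 to 14.8%) of all protein-coding genes. The line and band belong to the measure of the filled points. For that of the open points, the median of all protein-coding genes was 6.28%. Tbx6 drops from 22.5% to 0%, where only its body remains, and Tbx2 rises from 13.9% to 29.8%. Sox1, Sox3, Sox17, Tbx22 and Pax1 are at 0% in both.

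Gene bodies gave another order than loci. More than 50% of the body was in sites at 6 genes, namely Sox9 (76.6%), Sox12 (66.6%), Sox4 (64.8%), Sox21 (63.3%), Sox18 (61.8%) and Gata2 (58.4%). By body share among all protein-coding genes, these lay between percentile 95.3 for Gata2 and 97.6 for Sox9. How many of all protein-coding genes exceed 50% was not counted. The Sox genes among the 6 are short, from 1805 bp for Sox18 to 5537 bp for Sox9. Gata2, the factor of blood stem cells, is 13.1 kb long and held 4 body sites of up to 3690 bp. At the other end, Sox5 and Sox6, long genes of cartilage and neural development, had the most body sites, 63 and 55, but only 4.35% and 6.96% of their 954 and 568 kb in sites. Body and flanks did not go together in every gene, since Sox21 had 0.835% and Gata2 2.00% of their flanks in sites.

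**Figure D4:**
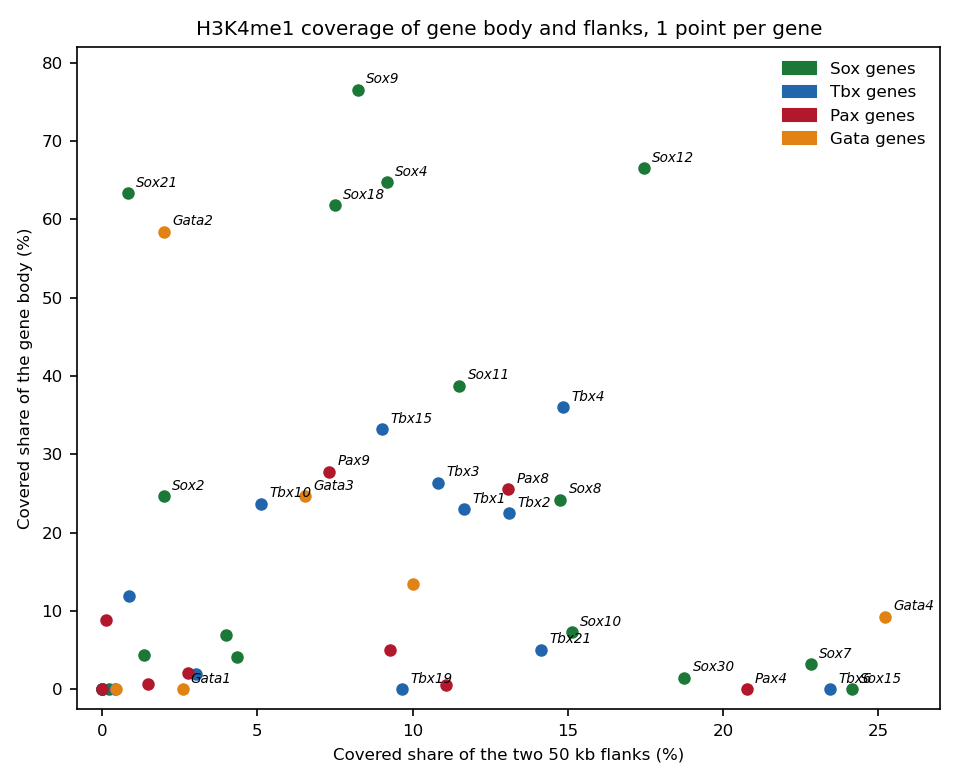
Each point is 1 of the 47 genes, with the share of its 50 kb flanks in H3K4me1 sites on the x axis and the share of its body on the y axis, both in %, coloured by family. Sox9, Sox12, Sox4, Sox21, Sox18 and Gata2 lie above 50% for the body, whereas Sox15, Tbx6 and Pax4 lie at 0% for the body and between 20.8% and 24.2% for the flanks.

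Among the Sox genes, 13 of 19 had a promoter site and 7 a covered TSS, and the textbook subgroups differed. All 3 SoxC genes, which act in progenitors of many tissues, had promoter sites and wide coverage. Sox4 had 920 bp of promoter and 11.7% of the locus in sites, Sox11 2001 bp and 13.6%, and Sox12 848 bp and 19.5%. The 3 SoxD genes Sox5, Sox6 and Sox13 had promoter sites too, of 1897, 597 and 714 bp. Of the SoxE genes, Sox9, the master factor of chondrocytes, had a site of 4032 bp from 326 bp before to 3705 bp after its TSS. Sox8 had 1474 bp of promoter in a site, while Sox10, the factor of neural crest and glia, had none, its nearest site being 4118 bp from the TSS.

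Of the SoxB genes, Sox2 and Sox21 had a promoter site, and Sox1, Sox3 and Sox14 had none. Sox2 had 1 promoter site of 1239 bp, from 732 bp before to 506 bp after the TSS, and 2.45% of the locus in 3 sites. Sox1 (chr8:12395295-12400126) and Sox3 (chrX:60891366-60893430) had no site in the locus. The nearest site was 107 kb away for Sox1, inside a stretch of 679 kb free of sites, and 1551 kb away for Sox3, in a free stretch of 4505 kb. Of the SoxB2 genes, Sox21 had 1463 bp of promoter in a site, and Sox14 had 0 bp and 1 site of 233 bp in its flank. Of the SoxF genes, Sox7 and Sox18, which act in blood and lymph vessels, had 1168 and 990 bp at the promoter. Sox17 (chr1:4490931-4497354), the SoxF factor that also forms endoderm, had none at its 8 annotated TSSs, and its nearest site was 74.0 kb away. Sox30, a gene of sperm development, had an island promoter without a site, although its locus held 16 sites and 3 of 4 neighbouring TSSs had one.

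Among the Tbx genes, 9 of 13 had a promoter site and 7 a covered TSS, and all 8 with an island promoter had a site. The median share of the locus in sites, 12.7%, was above those of the Gata (9.71%), Sox (8.46%) and Pax genes (5.95%). The order turned when flanks were ended before the next protein-coding gene, with medians of 11.7% for the Gata, 8.18% for the Tbx, 6.87% for the Sox and 5.95% for the Pax genes. Tbx2 and Tbx4 lie 53.9 kb apart on chromosome 11, share 6 sites of their loci and are not independent. Tbx3 and Tbx5 lie 162 kb apart on chromosome 5 and were unlike each other. Tbx3 had 1250 bp of promoter and 12.7% of the locus in 13 sites, 9 of them upstream. Tbx5, the factor of forelimb and heart, had no promoter or body site and 0.27% of the locus in 1 site of 410 bp, which ended 1186 bp before the TSS, and the TSS lay in a free stretch of 285 kb.

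Of the Tbx1 group, Tbx15 had 33.3% and Tbx1, a gene of the pharyngeal arches, 23.0% of the body in sites. Tbx18, which acts in epicardium and ureter mesenchyme, had a site of 2114 bp that began 19 bp before the TSS. Tbx20, a heart factor, had 1224 bp of promoter in a site and little beyond it, with 2.68% of the locus. Tbx10 had no promoter site but 23.7% of its body in sites. Tbx22 (chrX:107667964-107688978) had no site in the locus, and its nearest one was 148 kb away. Tbx21, which encodes the T-cell factor T-bet, had 1193 bp of promoter in a site, and 2 of 2 neighbouring TSSs had one. Tbx19, a factor of pituitary corticotrophs, had no promoter or body site and 7.87% of the locus in 12 flanking sites.

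Among the Pax genes, 4 of 9 had a promoter site, and in each of the 4 the TSS was covered. Pax2, Pax3, Pax9 and Pax6 had 1909, 1155, 1119 and 233 bp of promoter in sites. In every textbook pair or trio of Pax genes 1 member had a promoter site and the rest had none. Pax9, which acts in teeth and thymus, had 27.8% of the body in 6 sites, while its relative Pax1 (chr2:147361925-147393295) had no site in the locus and none within 166 kb of its TSS. Pax3, a gene of neural crest and muscle precursors, had 7 body sites. Pax7, known from muscle satellite cells, had an island promoter whose nearest site was 11.6 kb away, 2 body sites and 22.2% of its downstream flank in 9 sites.

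Some Pax genes carried sites at inner TSSs. At Pax5, the B-cell factor, a site of 1345 bp covered a TSS 6481 bp downstream of the first and was the only body site, so that 2 of 7 TSSs had a site. At Pax8, 2 of 7 TSSs had a site, at 29.7 and 52.5 kb from the first. At Pax6, the eye factor, 10 of 24 TSSs had a site, of which the first was covered by 1 site of 233 bp and 7 between 6209 and 7229 bp downstream lay in or near 1 site of 1587 bp. The most upstream TSS thus understates the mark at these genes.

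Among the Gata genes, 4 of 6 had a promoter site, and in each the TSS was covered. Gata2 had 1562 bp, Gata3 1330 bp, Gata4 2001 bp and Gata6 725 bp of promoter in sites. Gata1, the erythroid factor on the X chromosome, had no promoter or body site, its nearest site lay 22.6 kb from the TSS, and 1 of 5 neighbouring TSSs had a site. Gata3, the factor of T cells, had 8 body sites and 24.6% of the body in them. Gata4 had a site at 4 of 5 TSSs, and Gata6, which acts with it in heart and endoderm, at 5 of 6, with 10.9% of the locus in 23 sites. Gata5 (chr2:180325133-180334699) had an island promoter, no promoter or body site and 1 site of 462 bp, 42.7 kb away, which was 0.42% of the locus. Farther out the order turned. Within 150 kb of the TSS, 51.8 kb were in sites at Gata5, against 48.2 kb at Gata4 and 23.4 kb at Gata6. At Gata5, 1 of these sites ran from 102560 to 121654 bp downstream of the TSS, and the nearest was 42.7 kb from it. Other genes within these windows were not counted.

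The first TSSs of Gata3, Gata4 and Gata6 were counted as without an island, although each had 1 at another annotated TSS. With islands at any annotated TSS, 40 of the 47 members had 1, against 33 at the most upstream TSS. Of all 21938 protein-coding genes, 12679 had 1 at any annotated TSS, against 11802 at the most upstream. The members added were Gata3, Gata4, Gata6, Sox6, Sox10, Pax1 and Pax8, and this alternative was chosen after the values were seen.

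**Figure D5:**
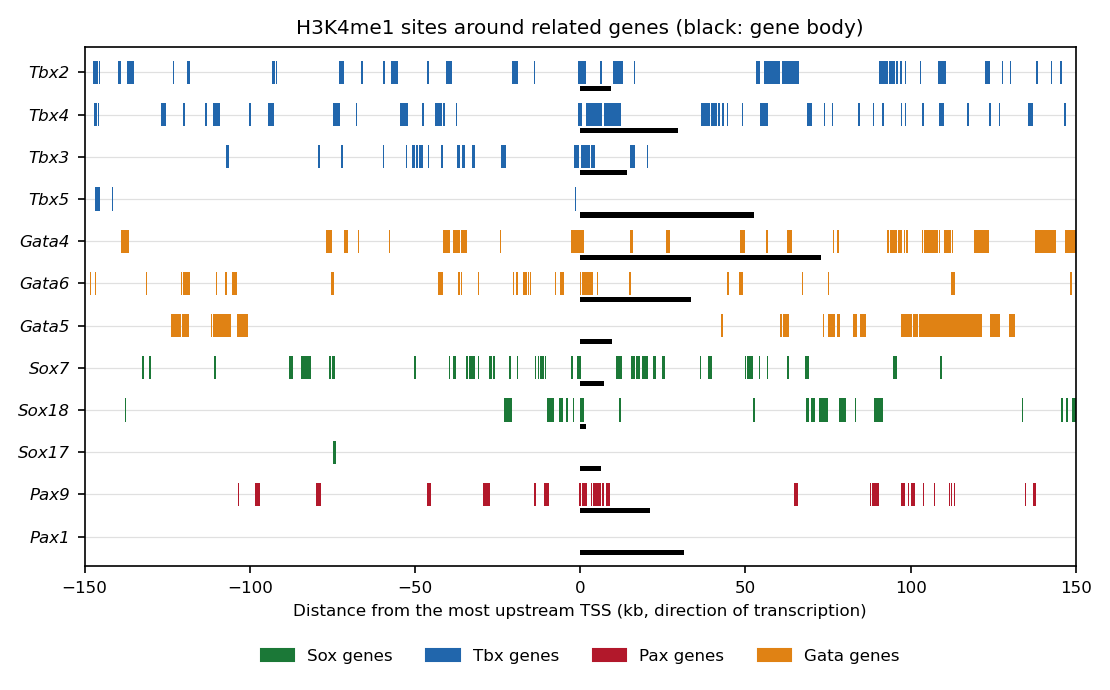
Coloured bars are H3K4me1 sites within 150 kb of the most upstream TSS of 12 related genes, drawn in the direction of transcription, with the gene body in black below them. Tbx3 has 19 sites in the window and Tbx5 3, Sox7 has 40, Sox18 19 and Sox17 1, Pax9 has 27 and Pax1 0, and the 20 sites of Gata5 begin 42.7 kb from its TSS.

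The 3 members on the X chromosome, Sox3, Tbx22 and Gata1, had no promoter site, and 40.1% of the 948 protein-coding genes of that chromosome had 1. For 18 members no other protein-coding gene reached into the flanks. The highest of these 18 by share of the locus in sites was Sox11, at percentile 71.4, so that each of the 10 members in the highest 25% had at least 1 neighbouring gene. Of the 11 members in the lowest 25%, 7 had none. The part of neighbouring genes in these shares was not tested.

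The loci held 617 distinct sites, 0.385% of those on chromosomes. Their median width was 638 bp (quartiles 379 and 1248 bp), against 603 bp (348 and 1134 bp) for all sites. By the centre of the site, 26 lay in a promoter, 33 in an exon, 196 in an intron and 362 in a flank. The 36 sites that overlapped a promoter were wider, with a median of 1356.5 bp. A wide site overlaps a window more readily, and this width was not computed for all protein-coding genes. At promoters with a site, the median length in sites was 1180.5 bp over the members and 1330 bp over all protein-coding genes.

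Short words that these factors are known to bind were counted on both strands. In the 300 bases at the TSS, the word AGATAA of the zinc finger family was in 3 promoters (6.38%, against 10.2% of all protein-coding promoters), namely those of Tbx19, Tbx22 and Gata4. AACAAT, bound by SOX factors, was in those of Sox2, Sox5 and Tbx19 (6.38% against 10.1%). AGGTGT, bound by T-box factors, was in those of Sox6, Tbx1 and Gata1 (6.38% against 14.4%). GTCACG, a part of the paired domain sites of PAX factors, was in those of Tbx5, Pax3, Pax6 and Gata5 (8.51% against 9.19%). CCAAT was in 22 promoters (46.8% against 39.0%), of which 11 were Sox and none Gata promoters, and TATAAA only in that of Tbx6 (2.13% against 12.7%). No word contains another, though neighbouring words can share end bases. A word that is missing says only that these letters are not in the window.

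At the 300 bases in the centre of sites, the word of a gene's own family was counted in the same way. For sites shorter than 300 bp this window reaches beyond their ends, so a word counted for a site may lie outside it. AGATAA was in 9 of 75 sites at Gata loci, against 12.6% of all sites, and AACAAT in 14.1% of 290 sites at Sox loci, against 12.9%. AGGTGT was in 18.2% of 148 sites at Tbx loci, against 15.9%, and GTCACG in 1.92% of 104 sites at Pax loci, against 4.04%. A word is a description of the sequence and not a bound site.

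Genes that work with these factors were read against the 63.9% of all protein-coding genes with a promoter site. Promoter sites were found at 6 of 7 GATA partners, among them Zfpm2 and Trps1, and not at Lmo2. Of 8 partners and targets of SOX factors 4 had one, among them the cartilage genes Col2a1 and Acan, whose loci had 15.2% and 6.74% of bases in sites. Of the T-box genes with other names and Sry, Eomes and Mga had a promoter site, and T, Tbr1 and Sry had none, the last on chromosome Y, on which the table has no site. For context, 72.7% of 44 Fox and 56.4% of 39 Hox promoters had a site. Of their island promoters 78.9% and 65.5% had one, against the 93% of all island promoters.

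The label of the cells was compared with sites at marker genes, bearing in mind that a site is not expression. Of 12 fibroblast markers 11 had a promoter site, among them Col1a1, Thy1 and Prrx1, and Col3a1 had none. Of 4 epithelial markers 4 had one, as had 2 of 3 endothelial and 2 of 3 neuronal markers, and none of 4 haematopoietic and 3 cardiomyocyte markers. The part of other cell types in the values above was not tested.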

How the data were processed

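The data are 12 ChIP-seq libraries of H3K4me1 from NG3 cells and 2 inputs. Per the labels and the methods, the authors used Trim Galore for trimming, BWA for alignment to mm10, SAMtools for filtering, Picard for merging and MACS2 for broad peaks; versions and thresholds are not given in the sources used here. The values of the deposited table, per the file headers, are positions, namely chromosome, start and end, of sites in 1 set pooled over all samples, so neither depth nor replicate spread can be given. Starts were counted from 0 and are printed counted from 1. Pooling joins sites of control and treated cells, and broad calling can fuse or split neighbouring sites, which moves widths and counts.

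Overlaps of at least 1 bp and covered bases were counted with numpy 2.4.6 and numba 0.67.0 under Python 3.11.15, and plots were made with matplotlib 3.10.9. Genes, exons and TSSs came from GENCODE M21 and sequence from GRCm38.p6; release M25 was not used here. Genes of chromosome Y were kept among the protein-coding genes, although the table has no site there. Percentiles give ties their mean rank. CpG islands were called on repeat-masked sequence by a running score (17 for a CpG, -1 for any other base), and kept above 200 bp with 50% GC or more and an observed to expected ratio above 0.6, which gave 16099 islands. On simulated data, 400 of 400 windows matched a direct count and 50 of 50 planted islands were found with both ends within 60 bp.

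Members, subgroups, related genes and markers were chosen with earlier results of these data known. Of the lists of related genes, 1 is not reported here. Named in full were the 10 members with the largest share of the locus in sites, those with no site and the first and last of each family; further members were named after their values were seen. A test of sites changed by dTAG was planned for a table of counts and was not run. Of 25 alternatives 2 were added after seeing the data.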

Additional observations from a re-analysis of the deposited data

How the results depend on the processing

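The table gives positions only, so differences between libraries, times and replicates, and counting error, are outside these results. No paired analysis was possible because positions pooled over all libraries carry no replicate; DESeq2, leaving out replicates and the replicate block were not run for that reason. A count was taken as kept within 1.5 times the main count, and a median, which has no replicate spread here, only if identical. By this, 15 of 25 alternatives kept the value and 10 moved it. The median promoter length in sites, 848 bp, became 1168 bp at the TSS with the most bases covered, 714 bp with sites of at least 500 bp and 920 bp with sites within 1 kb merged; over all protein-coding genes these were 1052, 788 and 949 bp. The 5 members without any site became 8 with sites of at least 500 bp, and all protein-coding genes without a site went from 13.2% to 16.3%. The median share of the locus, 8.46%, was 8.46% at this rounding with flanks of 25 kb and became 8.02% with 100 kb, 7.81% with sites of at least 500 bp, 9.33% with merged sites, 7.21% without the 1 kb around TSSs of other genes, and 7.21% with flanks ended 1 kb before the next protein-coding gene, an alternative chosen after seeing the data. Over all protein-coding genes the share was 7.86%. It was 7.59% with flanks of 25 kb, 6.72% with sites of at least 500 bp and 9.05% with merged sites. With flanks ended 1 kb before the next protein-coding gene it was 6.28%, and in each of these settings the members were the higher. With flanks of 100 kb it was 8.12%, and the members were the lower. Without the 1 kb around TSSs of other genes, it was not computed for all protein-coding genes. Every alternative run on the counts of members with a promoter site, a covered TSS, a body site or an island stayed within 1.5 times the main count. The cause of the moves was not tested beyond the construction of each alternative.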
